A study of Danio rerio with 4 samples.

Results

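The rapunzel genes rpz, rpz2, rpz3, rpz4 and rpz5 form a small family of related zebrafish genes. They were taken from the deposited table by gene symbol, and all 5 had a row among its 32057 Ensembl identifiers. The family was selected on the TPM of rpz5, which was far higher in the mutant than in the sibling libraries. Because it was chosen by this same comparison between genotypes, the members' values are given as a description with no p-value. The question set for the other members was whether they share the difference seen in rpz5.

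Rapunzel genes are known from fish. The founding gene, rpz, carries the name of a dominant zebrafish mutant with overgrown fins and excess bone, which is caused by a gain-of-function change in the protein. What the proteins do in the cell is not settled, and no role in the embryo is stated here for rpz2, rpz3, rpz4 or rpz5. The mutated genes of the study belong to the p53 pathway. Mdm2 marks p53 for destruction, puma (bbc3) and noxa (pmaip1) are p53 targets that promote apoptosis, and p21 (cdkn1a) is a p53 target that blocks the cell cycle.

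The mutant embryos were quadruple mutants, labelled mdm2-/-, puma-/-, noxa-/- and p21-/-, with 2 libraries. Their siblings, also with 2 libraries, were labelled puma-/-, noxa-/- and p21-/- with 1 or both mdm2 copies intact, so both genotypes are labelled as lacking puma, noxa and p21. In the titles the quadruple mutants are also named abnormal and their siblings normal, and this description and the genotype coincide, so that they cannot be told apart. Titles give an age of 18 hours post-fertilization, whereas the tissue label gives 30 hours. The RNA came from whole embryos, about 30 of which shared a dish, and the labels give neither the number of embryos in a library nor whether the libraries came from separate clutches. P-values below therefore reflect only how far these samples vary, which may be technical variation.

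Values are TPM, a transcript level corrected for transcript length and set to the same total for all libraries. Levels of different members can therefore be set side by side. How reads shared by overlapping or related genes were handled is not given, which limits such comparisons. The depth of sequencing cannot be known. The number of genes at 1 TPM or more was 15242 to 15584 per library. Across genes on the log2(TPM + 1) scale, libraries of a genotype correlated more closely (Pearson's r of 0.991 for mutants and 0.993 for siblings) than libraries of different genotypes (0.878 to 0.890). The comparison between genotypes was fitted with limma to 16172 genes, those that reached 1 TPM in 2 libraries or more. In it 65.6% of these genes passed an adjusted p of 0.05, 28.0% higher and 37.7% lower in the quadruple mutants, and the median log2 difference was -0.10. Transcripts of mdm2, the gene in which the genotypes differ, were at 1634 and 1819 TPM in the quadruple mutants, against 81.9 and 85.1 TPM in the siblings, and since TPM per gene counts mutant and intact alleles alike, this does not check the labels. Exchanging whole libraries in an exact permutation test of 2 against 2 cannot give a p below 0.333, so the calls depend on limma's pooling of the spread over genes.

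The large difference in rpz5 was not matched in size by any other member. rpz5 was 63.1 times as abundant in the quadruple mutants, rpz2 and rpz4 about 2 times, rpz was lower, and rpz3 was near 0 in both genotypes. The family's transcripts therefore differed in different directions and by very different amounts in the same embryos. In whole embryos, more cells that express a gene and more RNA per cell cannot be told apart.

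rpz5 (ENSDARG00000075718) stood at 236 and 235 TPM in the quadruple mutants, against 2.96 and 4.52 TPM in the siblings. Both mutant libraries lay far above both siblings, and the sibling libraries differed more from each other, relative to their mean, than the mutant libraries did. The means were 236 ± 0.841 TPM in the quadruple mutants and 3.740 ± 1.103 TPM in the siblings (SD, n = 2 each). Over the pairs of a mutant with a sibling library the ratio ran from 52.0 to 79.9. On the log2(TPM + 1) scale the difference was 5.66 (SE 0.154), which was the 5th largest positive difference of the 16172 genes tested. The added 1 TPM weighs on the low sibling values, and with 5 TPM added instead the difference was 4.79.

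rpz5 was among the more abundant transcripts in the quadruple mutants and among the less abundant ones in the siblings. Of all genes tested, 97.2% had a lower mean level than rpz5 in the quadruple mutants, and 28.4% had one in the siblings. Counting every row of the table from the highest level down, rpz5 held ranks 459 and 471 in the mutant libraries, against ranks 12367 and 10863 in the sibling libraries.

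rpz4 (ENSDARG00000039871) had 23.1 and 20.5 TPM in the quadruple mutants, against 12.4 and 10.4 TPM in the siblings. The genotypes did not overlap, and the nearest libraries were 8.17 TPM apart. The means were 21.8 ± 1.77 TPM in the quadruple mutants and 11.4 ± 1.42 TPM in the siblings (SD, n = 2 each), a ratio of 1.92 and a log2 difference of 0.89 (SE 0.114).

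rpz2 (ENSDARG00000091215) had 13.7 and 17.3 TPM in the quadruple mutants, against 8.12 and 7.18 TPM in the siblings. Again the genotypes did not overlap, although the mutant libraries were further apart from each other than for rpz4. The means were 15.5 ± 2.52 TPM in the quadruple mutants and 7.65 ± 0.665 TPM in the siblings (SD, n = 2 each), a ratio of 2.02 and a log2 difference of 0.92 (SE 0.134). The log2 differences of rpz2 and rpz4 lay closer together than the standard error of either.

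rpz (ENSDARG00000091161), the founding member, differed in the opposite direction. It had 9.49 and 9.16 TPM in the quadruple mutants, against 15.6 and 16.9 TPM in the siblings. Both mutant libraries lay below both siblings, with 6.14 TPM between the nearest libraries. The means were 9.33 ± 0.233 TPM in the quadruple mutants and 16.3 ± 0.919 TPM in the siblings (SD, n = 2 each), a ratio of 0.573 and a log2 difference of -0.74 (SE 0.090). All genes tested had a median of -0.10, and after median ratio scaling, which brought that median to 0.02, the difference of rpz was -0.61.

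rpz3 (ENSDARG00000069728) was at 0.05 and 0.23 TPM in the quadruple mutants, against 0.30 and 0.03 TPM in the siblings. The genotypes overlapped, and rpz3 was under 1 TPM in every library and was not tested. No ratio is given for levels this low.

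**Figure D1:**
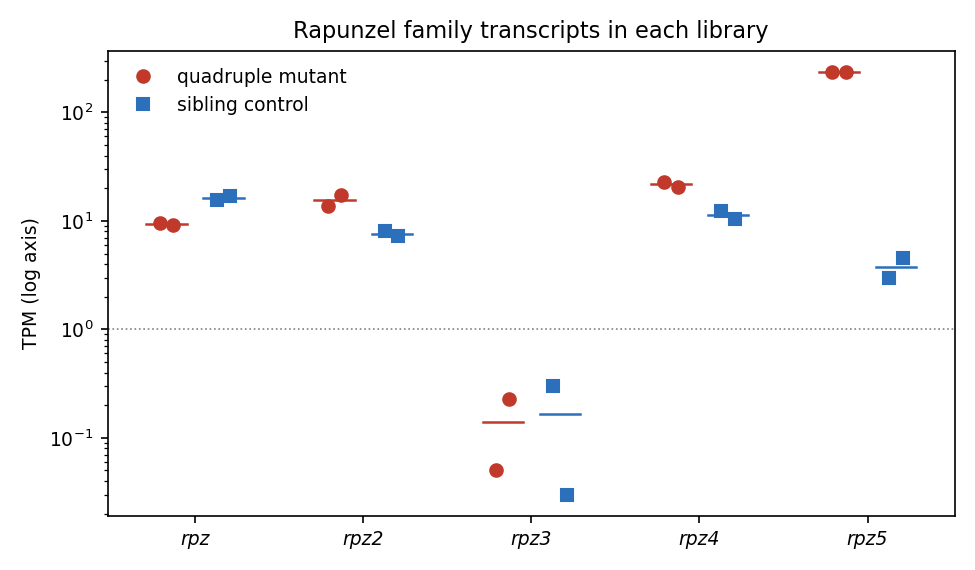
Level of each rapunzel family member in TPM on a log axis, with 1 point per library, quadruple mutants as red circles and sibling controls as blue squares, a bar at the mean of each genotype and a dotted line at 1 TPM. rpz5 sits at 236 and 235 TPM in the mutants and under 5 TPM in the siblings, rpz4 and rpz2 are higher and rpz lower in the mutants, and the rpz3 points of the genotypes overlap below 1 TPM.

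Of the 5 members, 4 passed the filter on low values, and limma called all 4, with 3 higher and 1 lower, where 65.6% of all genes tested were called. Since this comparison chose the family, nothing is read from that count. Their genotypes did not overlap, as was so for 83.3% of all genes tested. In absolute size, 24.2% of the genes tested had a larger log2 difference than rpz2, 25.7% had a larger one than rpz4 and 33.5% a larger one than rpz, whereas for rpz5 it was 0.0247%. The differences of rpz2, rpz4 and rpz therefore lay within the bulk of this transcriptome, and that of rpz5 lay at its edge.

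**Figure D2:**
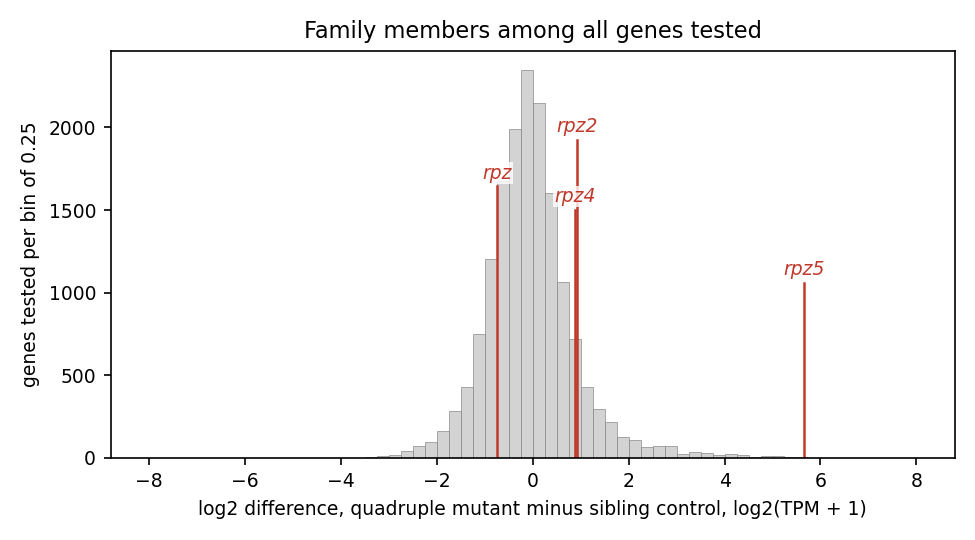
Distribution of log2 differences of log2(TPM + 1), as quadruple mutants minus siblings, over the 16172 genes tested, in bins of 0.25, with red lines at the rapunzel members tested (their height carries no value). rpz at -0.74, rpz4 at 0.89 and rpz2 at 0.92 lie within the main body of genes, and rpz5 at 5.66 lies in the far right tail.

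The order of the members by level differed between the genotypes. In the quadruple mutants the order was rpz5, rpz4, rpz2, rpz and rpz3, and in the siblings it was rpz, rpz4, rpz2, rpz5 and rpz3. No neighbours in either order overlapped between libraries. The smallest gap between single libraries was that of rpz4 and rpz2, at 3.28 TPM in the quadruple mutants and 2.24 TPM in the siblings. Their means differed by 6.32 TPM in the quadruple mutants, where their pooled SD was 2.18 TPM, and by 3.72 TPM in the siblings, where it was 1.11 TPM.

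Ratios between members within a library do not depend on a scaling factor applied to that library, although quantile normalization can change them. The ratio of rpz2 to rpz was 1.44 and 1.88 in the quadruple mutants, against 0.520 and 0.424 in the siblings. rpz was therefore the more abundant of this pair in both siblings and the less abundant in both mutants. The ratio of rpz4 to rpz was 2.43 and 2.24 in the quadruple mutants, against 0.791 and 0.612 in the siblings, which is the same exchange of order. The ratio of rpz4 to rpz2 was 1.68 and 1.19 in the quadruple mutants, against 1.52 and 1.44 in the siblings, and here the genotypes overlapped. The ratio of rpz5 to rpz4 was 10.3 and 11.5 in the quadruple mutants, against 0.239 and 0.436 in the siblings.

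Summed over the 5 members, the family had 283 and 282 TPM in the quadruple mutants, against 39.4 and 39.0 TPM in the siblings, or 7.21 times as much by the means. Most of that increase was rpz5. The other 4 members together had 46.3 and 47.2 TPM in the quadruple mutants, against 36.4 and 34.5 TPM in the siblings, a ratio of 1.32. The lower rpz level thus offset part of the higher rpz2 and rpz4 levels in the sum.

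The make-up of the family's transcript pool differed accordingly. rpz5 made up 83.6% and 83.3% of the summed TPM in the quadruple mutants, against 7.52% and 11.6% in the siblings. rpz made up 3.36% and 3.24% in the quadruple mutants, against 39.7% and 43.4% in the siblings, where it was the most abundant member. The shares of rpz4 averaged 7.71% in the quadruple mutants and 29.0% in the siblings, and those of rpz2 averaged 5.48% in the quadruple mutants and 19.5% in the siblings. A smaller share of rpz4 and rpz2 stands beside a higher level of both, because the pool itself was larger.

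**Figure D3:**
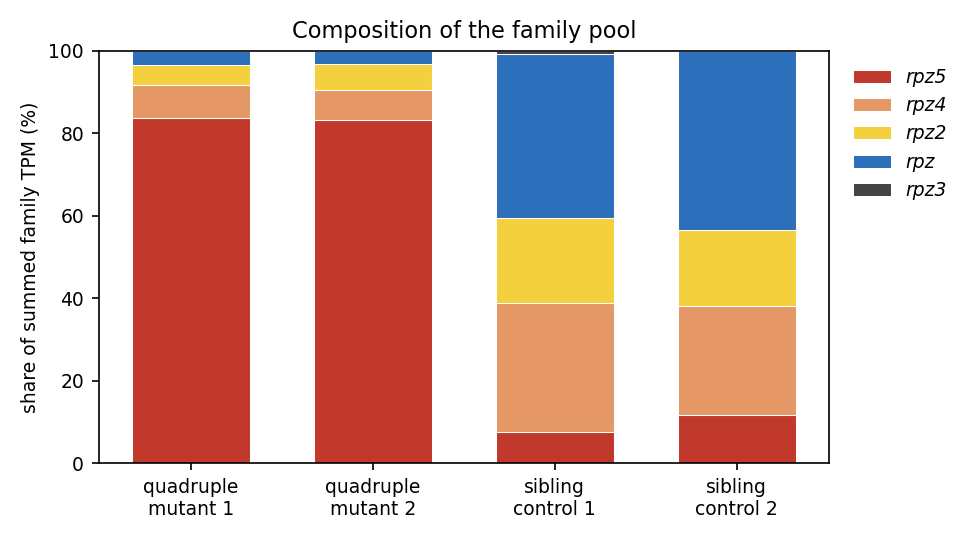
Share of each member in the summed TPM of the rapunzel family in every library, in percent, with quadruple mutants on the left and siblings on the right. rpz5 fills 83.6% and 83.3% of the mutant bars, whereas rpz, rpz4 and rpz2 make up most of the sibling bars, with rpz at 39.7% and 43.4%.

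The family lies together in the genome. Their order was taken from the RefSeq gene table of assembly GRCz12tu, which is not the build GRCz11 named by the submitters. There the members lie on 1 chromosome in the order rpz, rpz2, rpz3, rpz5 and rpz4. A further relative, rpz6, and an unnamed protein-coding gene are listed between rpz2 and rpz3. An unnamed long non-coding RNA is listed between rpz3 and rpz5. rpz5 and rpz4 are adjacent genes, and their mean levels differed between the genotypes by ratios of 63.1 and 1.92. rpz and rpz2 are adjacent as well and differed in opposite directions. rpz6 (ENSDARG00000089889) had 0.07 and 0.10 TPM in the quadruple mutants, against 0 and 0.07 TPM in the siblings, so it was near 0 throughout, as rpz3 was.

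In that table the gene models of rpz and rpz2 overlap each other, an unnamed protein-coding model overlaps both of them, and the model of an unnamed long non-coding RNA overlaps rpz5 and rpz4, so of the 5 members rpz3 is without such an overlap. The strand setting and the handling of reads shared by overlapping genes or by related copies are not given in the sources used here, so reads of such neighbours cannot be told apart from the TPM.

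Of 13 genes on either side of or between the members in that order, 4 had a matching row, rpz6 and 3 others. bola1, a member of the BolA family, had 43.2 and 44.8 TPM in the quadruple mutants, against 23.9 and 21.4 TPM in the siblings, and rose by a log2 difference of 0.93 (SE 0.082, limma adjusted p = 0.00021). tmem176l.1, a gene for a predicted membrane protein next to rpz4, had 23.2 and 26.4 TPM in the quadruple mutants, against 11.7 and 9.46 TPM in the siblings, and rose by 1.16 (SE 0.124, adjusted p = 0.00046). nr2f5, which encodes a nuclear receptor of the COUP-TF group, had 63.9 and 66.3 TPM in the quadruple mutants, against 111 and 113 TPM in the siblings, and fell by 0.77 (SE 0.057, adjusted p = 0.00011). The tested neighbours thus moved in both directions. The log2 differences of bola1 and rpz2, and of nr2f5 and rpz, lay closer together than the standard error of either. That of tmem176l.1 was somewhat larger than those of rpz2 and rpz4, and no neighbour differed by an amount near that of rpz5.

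Genes whose 4 library values lay nearest to those of a member were found by Euclidean distance on the log2(TPM + 1) scale among 13790 named genes. With 4 libraries in 2 genotypes this likeness is mostly a like level in each genotype, and it is given as a description. For rpz5 they were rnf14 (distance 0.638), bmb (0.649) and ace (0.749). rnf14, a RING finger gene, had 234 and 235 TPM in the quadruple mutants, against 4.76 and 5.98 TPM in the siblings. bmb, brambleberry, which acts in nuclear fusion in early zebrafish embryos, had 225 and 211 TPM in the quadruple mutants, against 4.97 and 5.35 TPM in the siblings. ace, angiotensin-converting enzyme, had 173 and 160 TPM in the quadruple mutants, against 3.22 and 3.75 TPM in the siblings. The level of rnf14 was thus near that of rpz5 in the mutants and somewhat higher in both siblings, and ace was lower than rpz5 in both mutants.

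The other members had nearer companions, at smaller distances. For rpz4 they were jak1, a cytokine receptor kinase gene (0.0865), smad7, an inhibitor of TGF-beta signalling (0.0955), and serpina10a (0.172). For rpz2 they were acsl4, a fatty acid activating enzyme gene (0.141), the receptor kinase gene mertka (0.153) and the ubiquitin ligase gene ube3c (0.158). For rpz they were c10h17orf49 (0.0971), the tRNA-modifying enzyme gene qtrt1 (0.108) and ints15 (0.114), a gene of the Integrator complex. The lists of 3 for the 4 members had no gene in common, which the different levels of the members alone made likely.

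Genes known as p53 targets give a scale for the difference in rpz5. Of 29 identifiers in that list 26 were tested, of which 19 rose, 5 fell and 2 did not pass. Of these 26, 73.1% rose and 19.2% fell, beside 28.0% and 37.7% of all genes tested. Their median log2 difference was 1.75, beside -0.10 for all genes. The list includes mdm2, ccng1, cdkn1a, bbc3 and pmaip1, which the study mutated or named in its title, so its count is not independent evidence. The growth arrest gene gadd45a (ENSDARG00000043581) had 427 and 412 TPM in the quadruple mutants, against 5.32 and 5.01 TPM in the siblings. It was the only 1 of the 26 with a larger log2 difference than rpz5, at 6.09 (SE 0.065, adjusted p = 7.5e-07). The other gadd45a entry (ENSDARG00000104571), named after its values were seen, rose by 0.50 (SE 0.096). mdm2 rose by 4.35 (SE 0.065, adjusted p = 1.4e-06). The sestrin genes sesn3 and sesn1, which restrain growth signalling, rose by 4.45 (SE 0.067) and 4.27 (SE 0.060). The 5 that fell, named after their values were seen, were ccng2 (-1.45), xpc (-1.11), ddb2 (-0.98), triap1 (-0.82) and ppm1d (ENSDARG00000009273, -0.37). Of the 26, 16 had larger log2 differences than rpz2 and rpz4, and 4 had lower ones than rpz.

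Genes of the fin fold were set beside the family because of the fin phenotype of the rpz mutant. Of 27 identifiers 21 were tested, of which 10 rose, 7 fell and 4 did not pass. Their median was 0.19, beside -0.10 for all genes. Under other processing, or with a library left out, that median ran from 0.04 to 0.38. Of all genes tested 28.0% rose and 37.7% fell, beside 47.6% and 33.3% of these 21 fin fold genes. Without sibling control replicate 1, 3 of them fell. The homeobox gene dlx6 had 22.5 and 23.6 TPM in the quadruple mutants, against 3.28 and 2.59 TPM in the siblings, and rose by 2.62 (SE 0.119, adjusted p = 2.4e-05). The basement membrane genes frem1b and lama5 rose by 2.16 (SE 0.085) and 1.46 (SE 0.102). Other matrix genes of the list, named after their values were seen, went both ways. For frem2, ENSDARG00000102626 rose (0.66, SE 0.117) and ENSDARG00000076856 fell (-0.52, SE 0.122). fras1 (-0.38, SE 0.123) and fbln1 (-0.63, SE 0.089) fell, and frem1 (0.18, SE 0.136) and hmcn1 (0.04, SE 0.333) did not pass. The transcription factor gene sp8 (ENSDARG00000056666) fell by 1.54 (SE 0.084, adjusted p = 4.2e-05). The other sp8 entry (ENSDARG00000011870), named after its values were seen, did not pass (-0.21, SE 0.077). The actinodin genes and1, and2 and and3, which encode the fibres of the fin fold, were all under 0.4 TPM in every library, and were therefore not tested.

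Bone and skeletal matrix genes were set beside it for the bone phenotype. Of 28 identifiers 19 were tested, of which 5 rose, 8 fell and 6 did not pass. Of these 19, 26.3% rose and 42.1% fell, near the 28.0% and 37.7% of all genes tested. Their median was -0.25, beside -0.10 for all genes. Under other processing, or with a library left out, that median ran from -0.31 to -0.07. bmp2 (ENSDARG00000041430) is a secreted signal that acts in bone formation as well as in early patterning. It had 82.4 and 79.2 TPM in the quadruple mutants, against 8.51 and 10.6 TPM in the siblings. It rose by 2.96 (SE 0.108, adjusted p = 1.1e-05). The other bmp2 entry (ENSDARG00000013409), named after its values were seen, did not pass (0.07, SE 0.133). The collagen gene col1a1 (ENSDARG00000035809) rose by 1.76 (SE 0.130). The other col1 entries of the list, col1a2 and col1a1a, were named after their values were seen and did not rise. col1a2 fell (-0.57, SE 0.116), and col1a1a did not pass (-0.25, SE 0.0996). The phosphatase gene alpl fell by 2.53 (SE 0.176), and the cartilage regulator sox9 (ENSDARG00000043923) fell by 1.37 (SE 0.088). The osteoblast gene spp1 reached 0.04 TPM in 1 mutant library and was listed at 0 in the other 3 libraries.

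Epidermal genes were mostly higher in the quadruple mutants, as were rpz2, rpz4 and rpz5 but not rpz. All 19 were tested, of which 13 rose, 2 fell and 4 did not pass, with a median of 0.42. Of these 19, 68.4% rose and 10.5% fell, beside 28.0% and 37.7% of all genes tested. The claudin gene cldni had 550 and 548 TPM in the quadruple mutants, against 185 and 173 TPM in the siblings, and rose by 1.61 (SE 0.054, adjusted p = 8.7e-06). The adhesion gene epcam rose by 0.98 (SE 0.064), the annexin gene anxa1c by 0.83 (SE 0.045) and the keratin gene krt18a.1 by 0.76 (SE 0.045). The genes that fell, named after their values were seen, were krt91 (-0.19) and the basal cell regulator tp63 (-0.34). Of these calls of lower genes, 1 was left without mutant replicate 1 or sibling replicate 2 and 0 without sibling replicate 1. The summed level of the list was 27215 to 28884 TPM in the quadruple mutants, against 20840 to 20964 TPM in the siblings, and its part in the family's values was not tested. No epidermal gene had a log2 difference near that of rpz5, and 2 of 19 had a larger one than rpz2 or rpz4.

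Markers of other tissues were present, as is usual for whole embryos. Of 26 identifiers 25 were tested, of which 4 rose, 15 fell and 6 did not pass, with a median of -0.60. Of these 25, 16.0% rose and 60.0% fell, beside 28.0% and 37.7% of all genes tested. The heart muscle gene myl7 fell by 1.88 (SE 0.110) and the muscle regulator myog fell by 1.04 (SE 0.061). Neural markers, named after their values were seen, all fell, from pax2 (ENSDARG00000028148, -0.26, SE 0.079) to neurog1 (-2.06, SE 0.149). So did the neural crest markers sox10 (-1.22, SE 0.099), crestin (-1.67, SE 0.117) and foxd3 (-1.11, SE 0.082), also named after their values were seen. In contrast, the blood and vessel regulator tal1 rose by 1.22 (SE 0.062) and the endoderm and floor plate gene foxa2 by 1.31 (SE 0.078). The other blood markers, named after their values were seen, went against tal1, as the erythroid regulator gata1a (-1.19, SE 0.121) and the globin gene hbae3 (-1.11, SE 0.067) fell. Midline markers, named after their values were seen, did not rise with foxa2. The shh entries ENSDARG00000038867 (-0.32, SE 0.142) and ENSDARG00000068567 (-0.11, SE 0.090) did not pass. Nor did noto (-0.28, SE 0.110), tbxta (0.19, SE 0.076) or col9a2 (0.03, SE 0.058). The endoderm gene sox17 was at most 0.15 TPM in any library. The summed level of these markers was 3917 to 3975 TPM in the quadruple mutants, against 3441 to 3557 TPM in the siblings. The hatching gland gene he1.1, named after its values were seen, carried that direction, at 2632 and 2699 TPM in the quadruple mutants, against 1591 and 1654 TPM in the siblings. Without it the other markers summed to 1276 to 1286 TPM in the quadruple mutants, against 1849.6 to 1903 TPM in the siblings. Tissue make-up thus differed between the genotypes or the genes did within tissues, which cannot be told apart, and its part in the values of the family was not tested.

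**Figure D4:**
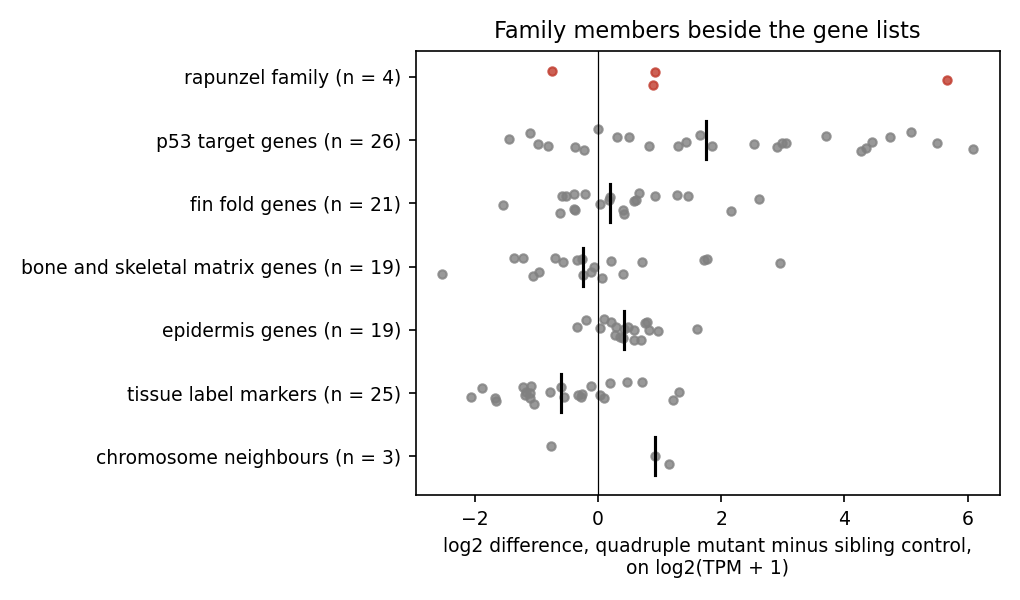
Log2 differences of log2(TPM + 1), as quadruple mutants minus siblings, of the tested rapunzel members in red and of the tested genes of each list in grey, with a black bar at the median of each list. rpz5 at 5.66 lies beyond all but 1 of the p53 target genes and beyond every gene of the other lists, while rpz2 and rpz4 lie within the spread of each list.

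The values of the members held when the processing was changed. The log2 difference of rpz5 ran from 4.79 to 5.97 over 12 alternatives, that of rpz2 from 0.69 to 1.08, that of rpz4 from 0.71 to 1.02 and that of rpz from -0.80 to -0.57. With a single library left out, rpz5 ran from 5.42 to 5.90, where the lower value came without sibling replicate 1 and the higher without sibling replicate 2. No alternative changed the direction of any of the 4 members.

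**Figure D5:**
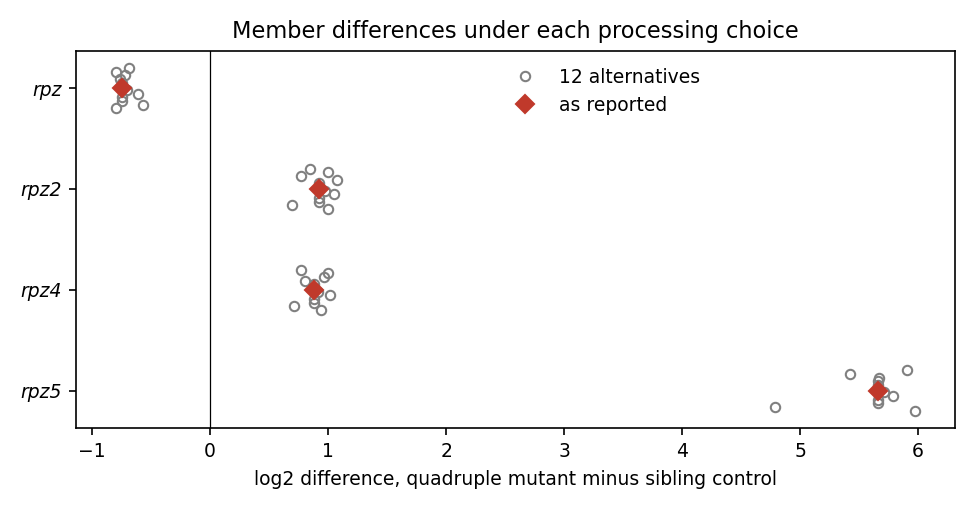
Log2 difference (quadruple mutant minus sibling control) of each tested rapunzel member as reported (red diamonds) and under 12 alternative processing choices (open circles). rpz stays between -0.80 and -0.57, rpz2 and rpz4 between 0.69 and 1.08, and rpz5 between 4.79 and 5.97.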

How the data were processed

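The deposited values were TPM for 32057 Ensembl identifiers in 4 poly-A RNA libraries of whole zebrafish embryos. Tools named in the submitters' processing notes are RSEM 1.3.3, STAR 2.7.3a, DESeq2 1.42.1, HTSeq 0.12.3 and R 4.3.3, with build GRCz11. The sources used here do not say which of them made the TPM. TPM keeps no depth, so no counting interval was computed. Symbols (28988 identifiers) came from a gene name table, matched exactly, then regardless of case, then without the copy letter, with at most 4 identifiers per symbol. Gene order came from RefSeq (GRCz12tu). Member sequences were not used here. Genes that reached 1 TPM in 2 libraries or more were kept. Their log2(TPM + 1) was fitted with limma 3.58.1 (R 4.3.3) with a variance trend, two-sided, with Benjamini-Hochberg adjustment over 16172 genes. The fit was also run on simulated data with 200 changed genes among 15458, a far smaller share than was called here. It recovered 68% of 2-fold and 88.6% of 4-fold changes there, which need not hold for these data. The changed genes were drawn from those above about 5 TPM in the siblings, a level that rpz5 did not reach. Differences are quadruple mutant minus sibling control. Named genes were the members, their 3 nearest named genes, up to 4 members of each list with the lowest p, mdm2, and the matched neighbours. The actinodin genes, spp1 and sox17 were named after their values were seen. Members and lists were chosen with earlier results of these data known. Alternatives were other pseudocounts, filters and scalings, no variance trend, a replicate block, and each library left out. Tables and figures used Python 3.11.15, pandas 2.3.3 and matplotlib 3.10.9.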

Additional observations from a re-analysis of the deposited data

How the results depend on the processing

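The difference of rpz5 was 5.97 with 0.1 TPM added and 4.79 with 5 TPM added, in place of 5.66. With 5 TPM added, rpz was at -0.57, rpz2 at 0.69 and rpz4 at 0.71. Under median ratio scaling rpz was at -0.61, the log2 difference of the summed family at 2.96, against 2.82 as reported, and that of the sum without rpz5 at 0.53, against 0.39. With 0.1 and 5 TPM added the summed family was at 2.85 and 2.70, and under quantile normalization at 2.85. Filters, the variance trend and the replicate block do not enter a sum of TPM and were not run on it. The number of epidermal genes that fell was 2 as reported and 1 under median ratio scaling, without the variance trend and with the replicate block. It ran from 0 to 2 with a single library left out, and the number of fin fold genes that fell from 3 to 8. The cause of these changes was not tested. With the replicate block 4457 genes were higher and 6062 lower, against 4522 and 6091 without it. Whether libraries with the same number share more than that number is not known from the labels. Their deviations from the genotype means correlated at 0.0488 across genes, which cannot decide it with 2 libraries per genotype. Every other count of called genes stayed within 1.5 times the reported one under every alternative run, and no value changed sign. Medians of the lists moved by more than the SD between libraries in 28 of 72 cases. With 2 libraries per genotype and no depth in TPM, small gaps between the log2 differences of members could not be resolved. The gap between the log2 differences of rpz2 and rpz4 was such a case.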
